A study of Arabidopsis thaliana with 29 samples.

Results

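The transition from the torpedo to the bent cotyledon embryo of Arabidopsis thaliana was described over all genes from the total reads of 8 of the 29 libraries of the series, the 4 libraries labelled bent and the 4 labelled torpedo. The embryos were hybrids of the accessions Tsu-1 and Col-0, crossed in both directions and written with the mother first. The groups were bent Tsu-1 x Col-0, bent Col-0 x Tsu-1, torpedo Tsu-1 x Col-0 and torpedo Col-0 x Tsu-1, with 2 libraries each that the labels call biological replicates. The crosses share their nuclear parents, so every library carries 1 Tsu-1 and 1 Col-0 genome with no transgene named in the labels, and they differ in the accession of the mother, of the surrounding seed coat and of the organelles. Embryos were dissected by hand and moved away from the maternal tissue to wash them, and their messenger RNA was amplified before library preparation, per the labels' protocols. The age of the embryos and their number per library are not given in the sources used here.

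As background, an Arabidopsis embryo lays down its body plan up to about the torpedo stage and then matures: cell division ends, the cotyledons lengthen and bend over inside the seed, and their cells fill with storage proteins and oil. Regulators of the LEC1, ABI3, FUS3 and LEC2 group and the hormone abscisic acid drive this filling programme, which ends in a dry, dormant seed. Seed oil is held in oil bodies coated with oleosins, storage proteins in vacuoles, and the late embryogenesis abundant (LEA) proteins protect cells when water is lost.

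Library totals ran between 689581 and 33745211 reads at bent and between 9082897 and 27817142 at torpedo. The shallowest was bent Tsu-1 x Col-0 replicate 2, so low levels rest on very few reads there. Levels below are CPM, counts scaled to the size and composition of a library, and they are not corrected for gene length. The share of reads held by the top 10 genes was 9.50% and 11.6% in the bent Tsu-1 x Col-0 libraries and 39.8% and 48.9% in bent Col-0 x Tsu-1, against 4.03% to 5.14% in torpedo libraries. Replicates of a group correlated with Pearson's r of 0.871 to 0.978 across genes, lowest in bent Tsu-1 x Col-0. In bulk embryos, fewer cells of a type and less RNA per cell cannot be told apart. Below, the values of the 4 libraries of a stage are given as Tsu-1 x Col-0 replicates 1 and 2, then Col-0 x Tsu-1 replicates 1 and 2.

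The question was which functions and families moved as maturation began. With cross direction as a covariate, 4253 of 19519 genes tested were higher at bent (21.8%) and 4357 were lower (22.3%), 44.1% in all, at an adjusted p under 0.05. The changes were large: 1661 of the higher genes and 1567 of the lower ones moved by more than 2 log2 units, and 360 higher and 89 lower genes by more than 5. The 4 bent libraries all lay above the 4 torpedo libraries for 14.7% of the genes tested and all below for 15.8%. The median log2 fold change over all genes tested was -0.05, and every median of a gene list below is to be read beside it. Tested in the 4 libraries of each cross alone, 43.6% of genes changed in Tsu-1 x Col-0 and 27% in Col-0 x Tsu-1, and these fits share no library. Of the genes higher at bent, 2117 were called in both crosses, which is 52.3% of the Tsu-1 x Col-0 calls and 73.3% of the Col-0 x Tsu-1 calls. Of the lower genes 1735 were called in both, 43.4% and 71.6% of the same sets. Only 11 genes in each direction were called in opposite directions by the 2 crosses.

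**Figure D1:**
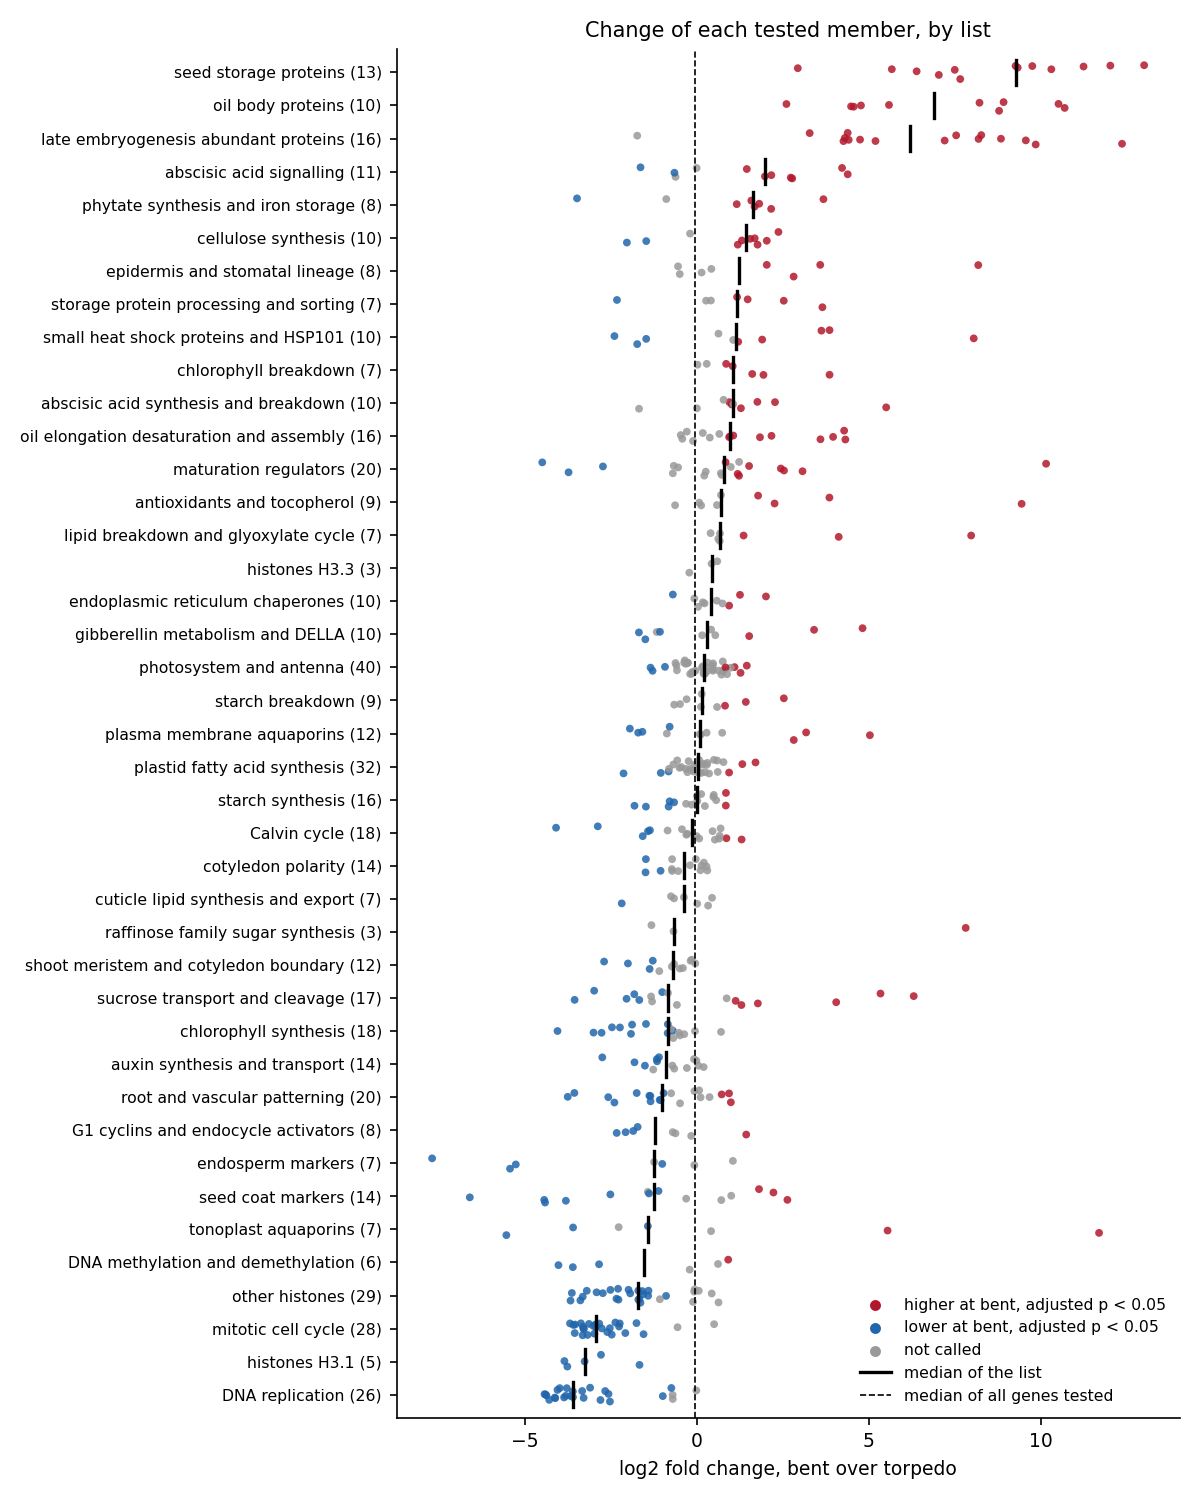
Log2 fold change, bent over torpedo, of every tested member of 41 gene lists, 1 point a gene, with the number tested in brackets. Points are red or blue where the adjusted p was under 0.05, a thick bar marks the median of the list and the dashed line the median of all genes tested, -0.05; seed storage, oil body and LEA genes sit far to the right, and DNA replication, H3.1 histone and mitotic genes to the left.

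Genes of the seed storage proteins were higher at bent without exception. All 13 members of that list rose. Their median log2 fold change was 9.27, and in each the 4 bent libraries lay above the 4 torpedo libraries. SESA3, an albumin of the napin type, had 16088, 35669.6, 172198 and 291435 CPM at bent, against 66.1, 113, 116 and 63.2 CPM at torpedo (log2 fold change 9.76 ± 0.96, adjusted p = 6.22e-06). Here and below the error on a log2 fold change is its standard error. CRU3, which encodes a cruciferin, the globulin of the protein storage vacuole, had 6863, 7855, 105104 and 48942 CPM at bent, against 5.75, 9.35, 2.85 and 5.70 CPM at torpedo (log2 fold change 12.03 ± 1.15, adjusted p = 5.07e-06). The cruciferin CRA1 had 2849, 5479, 76607 and 16457 CPM at bent, against 35.8, 89.8, 285 and 73.0 CPM at torpedo (log2 fold change 7.04 ± 0.84, adjusted p = 2.81e-05). In all 3 genes the bent Col-0 x Tsu-1 libraries stood well above the bent Tsu-1 x Col-0 libraries, which in turn stood far above every torpedo library. The albumin genes are close copies of each other, so reads may be shared among them. The cupin gene AT1G03890 had the largest rise of any gene whose mean log2 CPM reached 5 and whose stages did not overlap, and it was near 0 at torpedo and high in all 4 bent libraries, with 3284, 4084, 8943 and 4843 CPM at bent, against 0.0777, 0.624, 0.152 and 2.004 CPM at torpedo (log2 fold change 13.01 ± 0.92, adjusted p = 4.5e-07). The smallest rise on the list was that of the cupin gene AT4G36700, which was already high at torpedo, with 3958, 4707, 7120.0 and 22952 CPM at bent, against 1443, 1142, 401 and 1317 CPM at torpedo (log2 fold change 2.94 ± 0.64, adjusted p = 0.00262).

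As a share of all gene reads, the 13 storage protein genes took 6.02% and 7.79% in the bent Tsu-1 x Col-0 libraries and 36.3% and 45.8% in bent Col-0 x Tsu-1, against 0.133% to 0.252% in the torpedo libraries. Within each cross the stage gap was therefore wider than the spread between replicates, and the crosses at bent also lay apart.

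**Figure D2:**
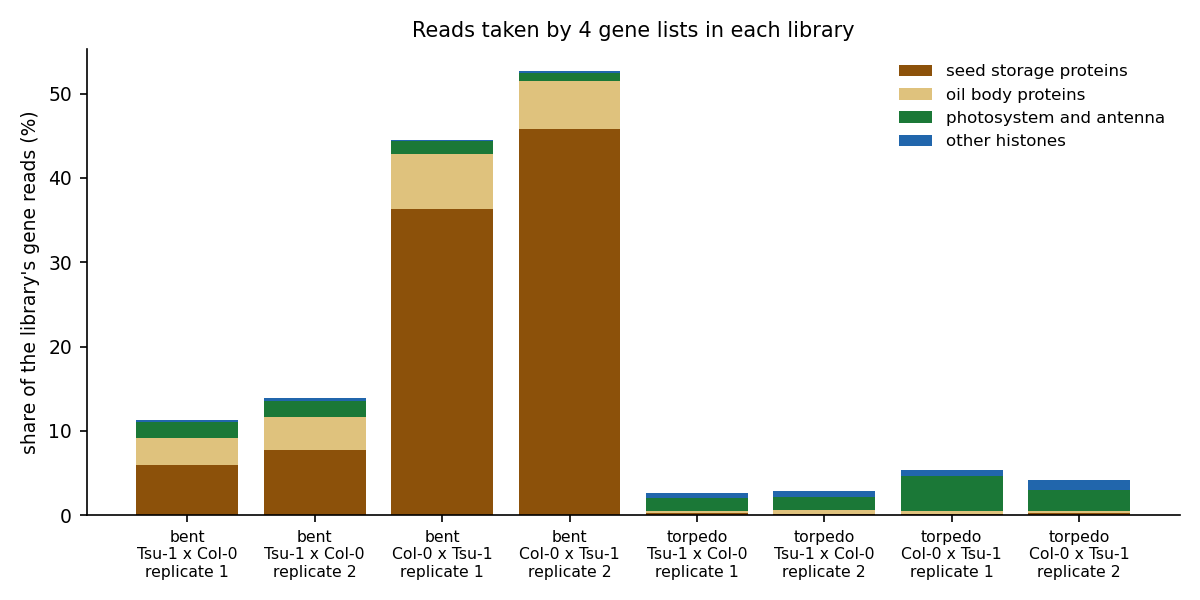
Percent of each library's gene reads taken by the seed storage, oil body, photosystem and antenna, and other (not H3.1 or H3.3) histone lists, stacked, 1 bar a library. Storage proteins took 6.02% to 45.8% of reads at bent, highest in the Col-0 x Tsu-1 libraries, and at most 0.252% at torpedo.

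The machinery that sorts and matures storage proteins rose less steeply. Of 7 genes, 4 rose and 1 fell, with a median of 1.17. The sorting receptor VSR1 had 645, 849.8, 332 and 241 CPM at bent, against 123, 132, 64.7 and 35.5 CPM at torpedo (log2 fold change 2.53 ± 0.31, adjusted p = 3.24e-05). BETA-VPE, the vacuolar processing enzyme of seeds, had 290.2 to 673 CPM at bent, against 27.4 to 61.5 CPM at torpedo (log2 fold change 3.65 ± 0.41, adjusted p = 1.6e-05), and the aspartic protease APA1 had 669 to 1189 CPM at bent, against 198 to 451 CPM at torpedo (log2 fold change 1.48 ± 0.35, adjusted p = 0.00395). DELTA-VPE, known from the seed coat, went the other way, with 1.397 to 3.21 CPM at bent, against 2.91 to 14.03 CPM at torpedo (log2 fold change -2.32 ± 0.43, adjusted p = 0.000825). Chaperones of the endoplasmic reticulum, where storage proteins fold, gave 3 higher and 1 lower of 10, against 21.8% and 22.3% over all genes tested. The thiol oxidase ERO1 rose, with 11.2 to 21.3 CPM at bent, against 3.46 to 4.24 CPM at torpedo (log2 fold change 2.01 ± 0.27, adjusted p = 6.19e-05). The binding protein BIP1 rose by a smaller amount (log2 fold change 0.94 ± 0.26, adjusted p = 0.0114) and lost its call without torpedo Tsu-1 x Col-0 replicate 1 (adjusted p = 0.0744). CRT3, a calreticulin, was lower (log2 fold change -0.70 ± 0.25, adjusted p = 0.0369), a call lost in 4 of the 8 fits that left out 1 library each (adjusted p up to 0.115). Among families grouped by annotated name with at least 10 genes tested, the p24 cargo receptors of the early secretory pathway had the highest share of risen members. In that family 7 of 10 rose with none lower, at a median of 0.93, among them p24delta5 at 67.7 to 322 CPM at bent, against 24.9 to 90.7 CPM at torpedo. Of the 7, AT1G69460 lost its call in 6 of the 8 fits that left out 1 library each (adjusted p up to 0.224). AT1G57620 lost its call in 3 of them (adjusted p up to 0.107).

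Tonoplast aquaporins moved in both directions. TIP3;1, the water channel of the protein storage vacuole, had 2085, 2369.7, 3147 and 1428 CPM at bent, against 0.622, 1.11, 0.121 and 1.08 CPM at torpedo (log2 fold change 11.70 ± 0.73, adjusted p = 1.9e-07). Its relative TIP3;2 had 949, 853, 2181.5 and 1992 CPM at bent, against 22.4, 33.4, 30.9 and 30.8 CPM at torpedo (log2 fold change 5.55 ± 0.39, adjusted p = 4.36e-07). TIP1;1, the main form of vegetative vacuoles, fell to 0 to 0.621 CPM at bent, against 8.71 to 24.0 CPM at torpedo (log2 fold change -5.54 ± 0.54, adjusted p = 5.81e-06), and TIP1;2 fell by 3.60. TIP2;2 was also called lower, but not in 6 of the 8 fits that left out 1 library each (adjusted p up to 0.27). In all 2 of 7 tested members rose and 3 were called lower. Of 12 plasma membrane aquaporins 3 were higher and 4 lower, not far from the 21.8% and 22.3% over all genes tested. PIP2;6 had 35.2 to 103 CPM at bent, against 0.462 to 4.37 CPM at torpedo (log2 fold change 5.03 ± 0.37, adjusted p = 5.56e-07) and PIP1;5 95.8 to 266 CPM at bent, against 11.7 to 21.0 CPM at torpedo (log2 fold change 3.18 ± 0.32, adjusted p = 7.87e-06), whereas PIP2;7 had 213 to 349 CPM at bent, against 459.5 to 1722 CPM at torpedo (log2 fold change -1.70 ± 0.37, adjusted p = 0.00261).

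All 10 oil body genes rose, with a median of 6.91 and no overlap of the stages in any. The oleosins, which coat the oil droplet, were already measurable at torpedo. OLEO1 had 6315, 9020.4, 39617 and 47922 CPM at bent, against 211, 321, 520.0 and 569 CPM at torpedo (log2 fold change 5.59 ± 0.51, adjusted p = 3.51e-06). OLEO2 had 13063, 20157, 27945 and 24570.2 CPM at bent, against 1072, 1500.4, 741 and 609 CPM at torpedo (log2 fold change 4.49 ± 0.50, adjusted p = 1.56e-05). OLEO3 had the smallest rise of the list (log2 fold change 2.61 ± 0.37, adjusted p = 0.000115). The caleosin CLO2 (10.70 log2) and the seipin SEIPIN1 (8.92), which shapes forming droplets, had much larger rises. The steroleosin HSD1 is a pair of near-identical genes, AT5G50600 and AT5G50700, whose deposited values were equal in every library, so reads cannot be assigned to either copy; each was given 1041 to 4629 CPM at bent, against 0.546 to 1.85 CPM at torpedo (log2 fold change 10.52 ± 0.71, adjusted p = 3.36e-07).

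The enzymes that make the oil divided by step. Of 32 genes of plastid fatty acid synthesis, 3 rose and 3 fell (9.38% each way) and the median was 0.03, with the sign of that median changing under another scaling (RLE). DESeq2 called 6 higher and 8 lower. The stearoyl desaturase SSI2 was the clearest riser, with 2448, 2495, 2038 and 1802 CPM at bent, against 973, 1086, 452 and 411 CPM at torpedo (log2 fold change 1.71 ± 0.32, adjusted p = 0.000961). The acyl carrier protein ACP4 was the clearest to fall, with 53.1, 16.03, 40.4 and 29.8 CPM at bent, against 112, 115, 248 and 191 CPM at torpedo (log2 fold change -2.13 ± 0.37, adjusted p = 0.000544). Elongation, desaturation and assembly of the oil in the endoplasmic reticulum gave 9 higher and none lower of 16, with a median of 0.95. FAD2, the oleate desaturase, had 2634, 3303, 7561 and 5922 CPM at bent, against 679.9, 849, 1391 and 1183 CPM at torpedo (log2 fold change 2.17 ± 0.33, adjusted p = 0.000203). FAE1 (KCS18), which makes the very long chain fatty acids of seed oil, had 1908, 2059, 1854 and 1546 CPM at bent, against 277, 358, 47.9 and 39.0 CPM at torpedo (log2 fold change 3.96 ± 0.55, adjusted p = 9.26e-05). Its bent values were close in the 4 libraries, and its torpedo values were lower in Col-0 x Tsu-1. The acyltransferases DGAT3 (4.29) and PDAT2 (3.60) rose more than DGAT2 (1.06), and DGAT1, the main enzyme of this step, was not called, at 0.38. Genes of oil breakdown and the glyoxylate cycle, used when the seedling later draws on its reserves, were already higher in 3 of 7. Isocitrate lyase (ICL) had 234, 226, 404 and 385 CPM at bent, against 1.01, 1.73, 0.941 and 1.16 CPM at torpedo (log2 fold change 7.98 ± 0.41, adjusted p = 6.45e-08), and malate synthase (MLS) 59.3 to 101 CPM at bent, against 2.02 to 7.86 CPM at torpedo (log2 fold change 4.13 ± 0.31, adjusted p = 6.41e-07).

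Protective proteins rose with the stores. Of 24 LEA genes 16 were tested, and 15 of those rose with none lower, at a median of 6.20. The filter on low counts keeps a gene that is high in a single group, so LEA genes with few reads at torpedo could pass it through bent alone. Such genes had little room to fall. AT4G21020 had 642, 795, 565 and 1001 CPM at bent, against 2.02, 2.22, 0.668 and 1.93 CPM at torpedo (log2 fold change 8.85 ± 0.51, adjusted p = 1.16e-07). LEA7 had 189, 435, 206 and 217 CPM at bent, against 9.17, 13.7, 15.3 and 15.3 CPM at torpedo (log2 fold change 4.27 ± 0.38, adjusted p = 2.63e-06). The bent values of these LEA genes did not separate by cross, and all lay far above the torpedo values. The 8 members that did not pass the filter on low counts included EM6, M17 and ECP31, which are known from later maturation. The 1-cysteine peroxiredoxin PER1, a seed antioxidant, had 976, 1432, 1836 and 1097 CPM at bent, against 2.02, 3.26, 1.43 and 1.23 CPM at torpedo (log2 fold change 9.45 ± 0.51, adjusted p = 7.76e-08). The tocopherol cyclase VTE1 had 781, 1050.2, 159 and 202 CPM at bent, against 67.4, 72.3, 12.6 and 9.71 CPM at torpedo (log2 fold change 3.86 ± 0.30, adjusted p = 9.94e-07), and 4 of 9 antioxidant genes rose with none lower. The chaperone HSP101, needed for heat tolerance, had 101 to 491 CPM at bent, against 10.9 to 16.5 CPM at torpedo (log2 fold change 3.86 ± 0.38, adjusted p = 6.38e-06), while the small heat shock list was mixed at 5 higher and 3 lower of 10. Phytate and iron stores gave 6 higher and 1 lower of 8. FER2, the seed ferritin, had 411, 205, 244 and 239 CPM at bent, against 30.9, 22.1, 18.6 and 15.6 CPM at torpedo (log2 fold change 3.68 ± 0.32, adjusted p = 2.26e-06). FER1, a ferritin of green tissue, had 4.44, 1.603, 6.59 and 9.93 CPM at bent, against 13.4, 14.8, 292 and 138 CPM at torpedo (log2 fold change -3.48 ± 0.59, adjusted p = 0.000422). FER3 had 23.2, 14.4, 10.9 and 13.3 CPM at bent, against 109, 89.8, 289 and 249.6 CPM at torpedo (log2 fold change -3.44 ± 0.45, adjusted p = 5.84e-05). Its fall was among the 12 largest of genes whose mean log2 CPM reached 5 and whose stages did not overlap. The ferritins moved in opposite directions, and FER1 and FER3 were higher in Col-0 x Tsu-1 than in Tsu-1 x Col-0 at torpedo. Stachyose synthase (STS), which makes protective sugars, had 43.3 to 135 CPM at bent, against 0.139 to 0.622 CPM at torpedo (log2 fold change 7.82 ± 0.46, adjusted p = 1.41e-07), the single raffinose-family gene called of 3 tested.

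Among 20 tested regulators of maturation, 8 rose and 3 fell. FUS3 had 315, 258, 168 and 161 CPM at bent, against 106, 68.2, 63.3 and 68.1 CPM at torpedo (log2 fold change 1.52 ± 0.27, adjusted p = 0.000613), so all bent libraries lay above all torpedo libraries. The bZIP factor EEL had 266, 141, 374 and 461 CPM at bent, against 43.2, 40.4, 55.0 and 67.3 CPM at torpedo (log2 fold change 2.54 ± 0.30, adjusted p = 2.88e-05), and its relative DPBF2 had 252, 219.7, 136 and 302 CPM at bent, against 38.5, 31.6, 17.3 and 24.4 CPM at torpedo (log2 fold change 3.08 ± 0.34, adjusted p = 1.47e-05). ABI5 also rose (log2 fold change 2.44 ± 0.39, adjusted p = 0.000289), and DOG1, the dormancy gene, rose by 10.16 log2, to 156 to 272 CPM at bent, against 0.0693 to 0.308 CPM at torpedo. LEC1, the factor of early embryo identity, moved the other way, with 10.5, 43.3, 1.34 and 2.33 CPM at bent, against 188, 147, 171 and 76.7 CPM at torpedo (log2 fold change -4.49 ± 0.73, adjusted p = 0.000304). LEC2 had 0.174, 0, 0.325 and 1.09 CPM at bent, against 4.12, 4.71, 5.86 and 6.40 CPM at torpedo (log2 fold change -3.73 ± 0.50, adjusted p = 6.83e-05). ABI3 (0.70), L1L (0.99), ABI4 (0.26) and WRI1 (-0.67) were not called. The calls for AREB3 (0.84) and BZIP53 (1.23) were weak, lost in 7 of the 8 fits that left out 1 library each (adjusted p up to 0.273) and in 4 of the 8 fits that left out 1 library each (adjusted p up to 0.198).

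Abscisic acid genes moved on the supply and the response side. Of 10 tested genes of its synthesis and breakdown, 6 rose and none fell. The epoxidase ABA1 had 37.3, 38.5, 47.9 and 48.4 CPM at bent, against 23.0, 22.03, 20.22 and 19.8 CPM at torpedo (log2 fold change 1.02 ± 0.23, adjusted p = 0.00324), and NCED9, the seed form of the rate-limiting dioxygenase, rose by 5.51 log2 to 6.41 to 9.18 CPM at bent, against 0.0777 to 0.308 CPM at torpedo. CYP707A2, which breaks the hormone down, rose too (log2 fold change 2.28 ± 0.57, adjusted p = 0.00629). Of 11 signalling genes, 7 rose and 2 fell, with a median of 1.98. Apart from the kinase OST1, those that rose were type 2C phosphatases, negative regulators that the hormone itself is known to induce. HAI1 had 2524, 2832, 582 and 298 CPM at bent, against 102, 193, 32.3 and 13.3 CPM at torpedo (log2 fold change 4.22 ± 0.42, adjusted p = 7.3e-06), and AHG1 rose by 4.39. HAI1 was higher in Tsu-1 x Col-0 than in Col-0 x Tsu-1 at both stages, and its stages did not overlap. The kinase SNRK2.3 fell, with 6.41 to 13.6 CPM at bent, against 20.6 to 36.6 CPM at torpedo (log2 fold change -1.63 ± 0.28, adjusted p = 0.000491). The call for ABI1 (-0.65) was lost in 7 of the 8 fits that left out 1 library each (adjusted p up to 0.123). Of 10 gibberellin genes 3 were higher and 3 lower, not far from the 21.8% and 22.3% over all genes tested. GA20OX3, an enzyme of gibberellin synthesis, had 1186, 325, 771 and 864 CPM at bent, against 32.6, 30.3, 25.8 and 23.59 CPM at torpedo (log2 fold change 4.82 ± 0.43, adjusted p = 2.76e-06), and of the DELLA repressors RGL2 rose (1.52) while RGL1 fell (-1.68).

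By terms in the annotated name, such as zinc finger or DNA-binding, 1082 tested genes were taken as transcription factors. The terms are broad and can take in other proteins, such as DHHC-type zinc finger proteins. Of the 1082 genes 215 rose and 238 fell, with a median of -0.07, much as over all genes. Among those whose mean log2 CPM reached 3 and whose stages did not overlap, the largest rise was that of AT1G01250, of the AP2/ERF type, with 811, 1677, 275 and 127 CPM at bent, against 3.81, 6.24, 1.88 and 0.462 CPM at torpedo (log2 fold change 7.64 ± 0.56, adjusted p = 6.14e-07). The NAC factors NAC032 (4.39) and ATAF1 (3.20), known from stress responses, and the zinc finger gene PEI1 (4.21), known from embryo development, were also among the 8 largest under the same limits. PEI1 had 507, 468, 210.2 and 229.5 CPM at bent, against 31.2, 24.3, 15.3 and 7.17 CPM at torpedo. On the falling side the B3 factor AT2G24700 had 6.18, 1.603, 1.58 and 3.57 CPM at bent, against 60.1, 66.9, 50.7 and 70.0 CPM at torpedo (log2 fold change -4.15 ± 0.39, adjusted p = 4.38e-06). ANT, which promotes cell division in growing organs, had 9.92, 3.21, 5.70 and 5.90 CPM at bent, against 62.0, 62.3, 122 and 78.2 CPM at torpedo (log2 fold change -3.56 ± 0.36, adjusted p = 7.84e-06). AP2 (-2.98) and WRKY53 (-3.25) were also among the 8 largest falls under these limits, which leave out factors of lower level or without such an annotated name.

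Cell division genes fell almost throughout. Of 28 mitotic genes 26 fell and none rose, with a median of -2.94, and in each of the 26 the bent libraries all lay below the torpedo libraries. The mitotic cyclin CYCB1;2 (named CYC1BAT in the annotation) had 6.35, 25.7, 11.6 and 9.16 CPM at bent, against 107, 106, 144 and 88.2 CPM at torpedo (log2 fold change -3.31 ± 0.40, adjusted p = 3.08e-05). CYCA1;1 had 13.7, 12.8, 9.32 and 7.45 CPM at bent, against 124, 113, 90.0 and 65.0 CPM at torpedo (log2 fold change -3.17 ± 0.26, adjusted p = 1.57e-06). KN (SYP111), the syntaxin of the dividing cell plate, had 40.6, 57.7, 18.7 and 20.17 CPM at bent, against 169.9, 186, 166 and 149.99 CPM at torpedo (log2 fold change -2.47 ± 0.31, adjusted p = 4.47e-05) and kept a higher bent level in Tsu-1 x Col-0. CYCA2;3 (-0.56) and AUR2 (0.50) were not called. The D-type cyclins CYCD3;2 (log2 fold change -2.07 ± 0.27, adjusted p = 6.04e-05) and CYCD3;3 (log2 fold change -1.85 ± 0.25, adjusted p = 7.69e-05), which start the cycle, also fell. CCS52A1 (FZR2), an activator of endoreduplication, was the single riser among 8 G1 and endocycle genes, at 9.62 to 19.7 CPM at bent, against 3.37 to 11.4 CPM at torpedo (log2 fold change 1.44 ± 0.37, adjusted p = 0.00738).

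DNA replication genes fell further still, 23 of 26 with none higher, at a median of -3.60. PCNA1, the sliding clamp of the polymerase, had 5.31, 25.7, 3.99 and 4.19 CPM at bent, against 122, 87.9, 195 and 156 CPM at torpedo (log2 fold change -4.43 ± 0.58, adjusted p = 5.58e-05). The ribonucleotide reductase subunit TSO2 had 17.1, 41.7, 8.07 and 9.62 CPM at bent, against 113, 197, 179 and 97.4 CPM at torpedo (log2 fold change -3.29 ± 0.43, adjusted p = 6.27e-05). In both genes the shallow bent library was the highest of the 4 but below every torpedo library. Of the 6 subunits of the replicative helicase, MCM2 fell by 4.40 log2 units and MCM5, the least changed, fell by 3.78, and their partner ETG1 fell by 3.60. ORC1A (-0.01), ORC5 (-0.70) and RNR2A (-0.70) were not called. DUT1, which keeps uracil out of DNA, had 57.3, 179.6, 9.14 and 26.1 CPM at bent, against 547, 726, 269 and 414 CPM at torpedo (log2 fold change -3.39 ± 0.54, adjusted p = 0.000282), again higher at bent in Tsu-1 x Col-0 than in Col-0 x Tsu-1.

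Histone genes separated by type. All 5 H3.1 genes, whose product is laid down during replication, fell, with a median of -3.26. AT5G10390 had the largest fall of any gene whose mean log2 CPM reached 5 and whose stages did not overlap, with 12.7, 16.03, 6.17 and 15.1 CPM at bent, against 94.7, 110.0, 193 and 286 CPM at torpedo (log2 fold change -3.76 ± 0.44, adjusted p = 2.37e-05). AT5G65360 had 25.6, 94.6, 22.4 and 18.6 CPM at bent, against 129, 178, 696 and 589.6 CPM at torpedo (log2 fold change -3.26 ± 0.73, adjusted p = 0.00307). The torpedo values of both were higher in Col-0 x Tsu-1. AT3G27360 had the weakest fall (log2 fold change -1.66 ± 0.53, adjusted p = 0.0226), lost in 2 of the 8 fits that left out 1 library each (adjusted p up to 0.0559). Near-identical copies of histone genes can share reads, so the split between copies is uncertain. The 3 H3.3 genes, replaced outside replication, gave no call, at log2 fold changes of -0.22, 0.43 and 0.60, and the difference between H3.1 and H3.3 was not tested. Of 29 other histone genes 22 fell and none rose. HTA13 had 14.01, 33.7, 9.14 and 16.8 CPM at bent, against 106, 131, 317 and 360.0 CPM at torpedo (log2 fold change -3.67 ± 0.52, adjusted p = 0.000104), and HTR12, the H3 of centromeres, fell by 3.38. The high-mobility-group gene 3xHMG-box2, which binds mitotic chromosomes, had 7.24 to 17.7 CPM at bent, against 71.2 to 199 CPM at torpedo (log2 fold change -3.30 ± 0.38, adjusted p = 2.01e-05). The maintenance methyltransferases CMT3 (log2 fold change -4.02 ± 0.32, adjusted p = 1.24e-06) and MET1 (log2 fold change -2.84 ± 0.32, adjusted p = 1.93e-05) and the remodeller DDM1 (log2 fold change -3.60 ± 0.35, adjusted p = 6.23e-06) fell with them. CMT3 had 1.31, 3.21, 5.24 and 3.26 CPM at bent, against 31.9, 35.1, 66.6 and 54.0 CPM at torpedo. In all 3 of 6 genes of DNA methylation and demethylation fell and 1 rose.

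Families by annotated name extended the fall beyond the cell cycle. All 13 tested chaperonins of the TCP-1/cpn60 type were lower, with a median of -1.46, including subunits of the cytosolic folding chamber and of the chloroplast one. CPN60B, of the chloroplast, had 21.2, 41.7, 26.3 and 22.5 CPM at bent, against 151, 245, 466 and 302 CPM at torpedo (log2 fold change -3.39 ± 0.39, adjusted p = 2.21e-05). Of 13 genes named plastid transcriptionally active, components of the chloroplast transcription complex, 11 fell with none higher. PTAC12 had 11.1, 11.2, 9.55 and 12.1 CPM at bent, against 64.8, 68.0, 92.6 and 96.8 CPM at torpedo (log2 fold change -2.88 ± 0.26, adjusted p = 3.24e-06). The organelle RNA-binding protein AT5G46580, with pentatricopeptide repeats, had 10.4, 12.8, 13.7 and 16.6 CPM at bent, against 171, 143, 99.2 and 97.0 CPM at torpedo (log2 fold change -3.20 ± 0.31, adjusted p = 5.79e-06). That was among the 12 largest falls of genes whose mean log2 CPM reached 5 and whose stages did not overlap. In the largest family of that type 60 of 184 genes fell and 2 rose. Pseudouridine synthases (12 of 18 lower, none higher), DEAD-box RNA helicases (12 of 19, none higher) and genes named ribosomal protein (25 of 58 lower, 1 higher) act in ribosome assembly or RNA processing. Of 15 kinesin-type motors 11 fell and 1 rose, and of 33 cyclins 20 fell and 2 rose.

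Genes named heat shock protein fell in 9 of 15 and rose in 3. Mitochondrial HSP60 had 43.4 to 91.4 CPM at bent, against 155 to 422 CPM at torpedo (log2 fold change -2.04 ± 0.37, adjusted p = 0.000663) and the cytosolic HSP90 gene HSP81-2 39.6 to 146 CPM at bent, against 164 to 559.5 CPM at torpedo (log2 fold change -1.72 ± 0.31, adjusted p = 0.000752), while HSP70 had 158 to 239 CPM at bent, against 53.6 to 109.8 CPM at torpedo (log2 fold change 1.42 ± 0.29, adjusted p = 0.00163). Early nodulin-like proteins of the cell surface fell in 9 of 16 and rose in 3. ENODL4 fell to 12.4 to 64.1 CPM at bent, against 167 to 286 CPM at torpedo, whereas ENODL2 rose to 139.8 to 282 CPM at bent, against 7.95 to 28.4 CPM at torpedo. On the rising side, after the p24 receptors, came cupins (12 of 20, which include storage proteins), beta glucosidases (9 of 16), flavin monooxygenases (6 of 11), genes annotated only as plant/protein (7 of 13), proline-rich proteins (9 of 17), adenine nucleotide alpha hydrolases (10 of 19), and UPF0497 membrane proteins (12 of 23). At the next share, 50%, 8 families were tied, among them UDP-glucosyl transferases (13 of 26), NAD(P)-linked oxidoreductases (9 of 18), PLAC8 proteins (7 of 14) and SNARE-associated Golgi proteins (6 of 12, none lower). BGLU11 had 67.3 to 221 CPM at bent, against 0.231 to 0.97 CPM at torpedo (log2 fold change 7.68 ± 0.54, adjusted p = 4.5e-07). AT3G11930, of the hydrolase family, had 647, 601, 300.0 and 556 CPM at bent, against 10.5, 6.998, 9.29 and 7.25 CPM at torpedo (log2 fold change 5.92 ± 0.37, adjusted p = 1.9e-07).

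Photosystem genes gave few calls, while genes of chlorophyll synthesis fell and genes of its breakdown rose. Of 40 photosystem and antenna genes 4 rose and 3 fell, a smaller share than over all genes, with a median of 0.22 that was 0.00 without bent Tsu-1 x Col-0 replicate 2. The crosses differed in sign, with a median change of 0.89 in Tsu-1 x Col-0 and -0.46 in Col-0 x Tsu-1, but no member passed the interaction test. The photosystem II gene PSBR had 1472, 1703, 1653 and 1502 CPM at bent, against 338, 395, 1088 and 726 CPM at torpedo (log2 fold change 1.46 ± 0.36, adjusted p = 0.00556). Chlorophyll synthesis fell in 11 of 18 genes with none higher. Among the 11, HEMA1 and PCB2 each lost their call in 6 of the 8 fits that left out 1 library each. The protochlorophyllide reductase PORB had 51.4, 14.4, 83.8 and 98.2 CPM at bent, against 276, 237, 633 and 548 CPM at torpedo (log2 fold change -2.77 ± 0.36, adjusted p = 4.98e-05). GSA1, at the start of the pathway, had 87.7, 70.5, 51.4 and 42.1 CPM at bent, against 295, 315, 180.1 and 167 CPM at torpedo (log2 fold change -1.91 ± 0.26, adjusted p = 6.95e-05). Genes of chlorophyll breakdown rose in 5 of 7 with none lower. Of these, ACD2 lost its call in 4 and PPH in 3 of the 8 fits that left out 1 library each. The pheophorbide oxygenase PAO (ACD1) had 72.6, 96.2, 135 and 88.6 CPM at bent, against 29.1, 32.4, 26.4 and 15.3 CPM at torpedo (log2 fold change 1.94 ± 0.32, adjusted p = 0.000328), and NYE1, known as a stay-green gene, 19.9 to 47.0 CPM at bent, against 7.01 to 13.2 CPM at torpedo (log2 fold change 1.61 ± 0.23, adjusted p = 0.00012). In the Calvin cycle 5 of 18 fell and 2 rose, against 22.3% lower and 21.8% higher over all genes tested. Rubisco activase (RCA) had 74.0, 38.5, 117 and 147 CPM at bent, against 150.4, 177, 421 and 407 CPM at torpedo (log2 fold change -1.57 ± 0.29, adjusted p = 0.000738), with the stages apart in every library. The calls of both risers were weak: CP12-1 lost its call in 4 of the 8 fits that left out 1 library each (adjusted p up to 0.125), and GAPA in 6 of the 8 fits that left out 1 library each (adjusted p up to 0.143).

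Sucrose genes moved in both directions. Of 17 tested genes of sucrose transport and cleavage 6 rose and 6 fell. The sucrose synthase SUS2 had 511, 577, 1870.5 and 1235 CPM at bent, against 28.3, 31.4, 17.2 and 17.2 CPM at torpedo (log2 fold change 5.34 ± 0.52, adjusted p = 6.08e-06), and SUS3 rose by 6.31 log2. The phloem-type sucrose carrier SUC2 had 135, 123, 301 and 212 CPM at bent, against 7.31, 7.83, 20.01 and 11.6 CPM at torpedo (log2 fold change 4.05 ± 0.30, adjusted p = 6.62e-07). The sucrose synthase SUS6 (log2 fold change -1.67 ± 0.34, adjusted p = 0.00164) and the carrier SUC5 (log2 fold change -1.003 ± 0.26, adjusted p = 0.007), however, fell. Invertases were lower where called, in 3 of 4 tested. Cell wall invertase CWINV1 had 9.66, 8.02, 6.96 and 6.98 CPM at bent, against 46.5, 47.0, 25.0 and 23.3 CPM at torpedo (log2 fold change -2.04 ± 0.25, adjusted p = 3.1e-05), and the cytosolic CINV1 15.5 to 35.3 CPM at bent, against 53.2 to 99.6 CPM at torpedo (log2 fold change -1.82 ± 0.33, adjusted p = 0.000654). The sugar exporter SWEET11, known from the seed coat, fell too (log2 fold change -2.98 ± 0.44, adjusted p = 0.000144). Starch synthesis gave 2 higher and 5 lower of 16, and starch breakdown 3 higher and none lower of 9, against 21.8% higher and 22.3% lower over all genes tested, so neither count stands far from that of all genes. Under RLE scaling and with DESeq2, 1 gene of starch breakdown was lower. Without bent Tsu-1 x Col-0 replicate 2, starch synthesis had 3 genes lower and starch breakdown 2 higher and 1 lower. The beta-amylase BAM5 had 312, 229, 89.3 and 128 CPM at bent, against 34.8, 32.1, 20.07 and 32.4 CPM at torpedo (log2 fold change 2.53 ± 0.32, adjusted p = 4.63e-05).

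Some patterning genes fell. Of 12 genes of the shoot meristem and cotyledon boundary 4 fell and none rose, against 22.3% lower and 21.8% higher over all genes tested. Of the 4, STM lost its call in 4 of the 8 fits that left out 1 library each (adjusted p up to 0.0823). The receptor kinase CLV1 had 6.01, 6.41, 8.67 and 13.2 CPM at bent, against 18.5, 21.1, 19.2 and 23.1 CPM at torpedo (log2 fold change -1.28 ± 0.28, adjusted p = 0.00238). KNAT1 had 22.02, 14.4, 16.4 and 25.9 CPM at bent, against 37.9, 223, 48.3 and 57.0 CPM at torpedo (log2 fold change -2.001 ± 0.50, adjusted p = 0.00617), where torpedo Tsu-1 x Col-0 replicate 2 stood apart from the other torpedo libraries. WUS, CLV3, CUC1 and CUC2 were not called. Root and vascular patterning gave 11 lower and 3 higher of 20. Of the 3 risers, SCR lost its call in 6 and AIL5 in 3 of the 8 fits that left out 1 library each. Among the lower genes PRS lost its call in 3, WOX2 in 2 and BBM in 1 of those fits. The auxin response factor MP fell by 2.57 log2, WOX8, of the early basal lineage, by 3.75, and the root stem cell factors PLT1 and PLT2 by 1.08 and 1.35. WOX9 (HB-3) rose, with 17.1 to 24.6 CPM at bent, against 9.17 to 11.04 CPM at torpedo (log2 fold change 0.99 ± 0.23, adjusted p = 0.00417). Of 14 auxin synthesis and transport genes 6 fell and none rose, and LAX2 lost its call in 3 of the 8 fits. Of 14 polarity genes 3 fell and none rose, a share lower that was close to the 22.3% over all genes tested. AS1 was among them (log2 fold change -1.48 ± 0.31, adjusted p = 0.00199), a gene that keeps leaf cells out of the meristem fate. KAN3, also among them, lost its call in 3 of the 8 fits. Of 7 tested cuticle genes 1 fell and none rose.

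Most genes of cellulose synthesis rose, as did some of the stomatal lineage. Of 10 genes of cellulose synthesis 7 rose and 2 fell, with a median of 1.43. CESA2 had 547, 327, 259 and 265 CPM at bent, against 129, 90.0, 36.8 and 41.3 CPM at torpedo (log2 fold change 2.38 ± 0.31, adjusted p = 5.82e-05). CESA6 had 295, 141, 219 and 257 CPM at bent, against 73.5, 61.0, 38.1 and 54.8 CPM at torpedo (log2 fold change 2.04 ± 0.32, adjusted p = 0.000237), and CESA1 and CESA3, the other subunits of the primary wall complex, rose by 1.69 and 1.55. CESA4, of the secondary wall, fell (log2 fold change -1.47 ± 0.44, adjusted p = 0.0159), a call lost in 2 of the 8 fits that left out 1 library each (adjusted p up to 0.0911). CESA10 fell as well (log2 fold change -2.03 ± 0.41, adjusted p = 0.0014). Of 8 epidermal and stomatal lineage genes 4 rose and none fell. The stomatal receptor TMM had 32.2, 32.1, 50.7 and 40.7 CPM at bent, against 8.47, 9.70, 10.4 and 9.10 CPM at torpedo (log2 fold change 2.04 ± 0.24, adjusted p = 2.49e-05). The secreted signals EPFL9 (STOMAGEN) and EPF2 rose by 2.82 and 3.59. MUTE, which ends the divisions of a stomatal precursor, had no read in any torpedo library and 106 reads at bent, 2.38 ± 0.522 CPM (SD, n = 4), which is at least 58.0-fold higher against 3 reads over the 4 torpedo libraries. The epidermal factors ATML1 and PDF2 and the lineage starter SPCH were not called.

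Markers of the tissues around the embryo were measured in the same libraries. Of 7 tested endosperm genes 4 fell and none rose, and the summed level of the 12 on the list was 20.9 to 43.5 CPM at bent, against 88.9 to 160.6 CPM at torpedo. AT1G50650, the largest fall on the endosperm list, had 0, 0, 0.0928 and 1.397 CPM at bent, against 42.0, 49.7, 45.8 and 97.6 CPM at torpedo (log2 fold change -7.69 ± 0.74, adjusted p = 4.94e-06). AGL62, FIS2 and CKX2 were not called. Of 14 tested seed coat genes 7 fell and 3 rose. BAN, of the tannins made in the coat, fell by 6.60 log2 units, and the flavonoid genes TT4 (1.81), F3H (2.23) and TT7 (2.64), which act early in flavonoid synthesis, rose. The summed level of the 19 coat genes was 367 to 1589 CPM at bent, against 188 to 448 CPM at torpedo. Up to 8 of the 19 were at 0 in a bent library and up to 1 in a torpedo library. In the authors' deposited table of parental fractions, seed coat genes covered by 10 or more variant reads had a median maternal share of 38.3% (6 genes) in bent Tsu-1 x Col-0 and 62.5% (5 genes) in bent Col-0 x Tsu-1, against 73.9% (10 genes) in torpedo Tsu-1 x Col-0 and 97.2% (11 genes) in torpedo Col-0 x Tsu-1. At the authors' adjusted p under 0.05, their deposited table gave as maternal 1 of those 6 and none of those 5 at bent, against 1 of those 10 and 8 of those 11 at torpedo. Fewer coat genes were covered at bent, so the shares at bent and torpedo do not rest on the same set of genes. The part of coat and endosperm RNA in the falls of other genes was not tested. By the same deposited table the storage protein genes were near parity at bent, with median maternal shares of 52.0% in Tsu-1 x Col-0 and 51.8% in Col-0 x Tsu-1 (11 genes each).

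Whether the change differed between the crosses was tested as an interaction, given as the log2 change in Tsu-1 x Col-0 minus that in Col-0 x Tsu-1. It passed for 7 of 19519 genes (0.0359%), 3 with the larger value in Tsu-1 x Col-0 and 4 in Col-0 x Tsu-1, while 2768 genes had an unadjusted p under 0.05 and DESeq2 called 304. The vicilin-type storage gene PAP85 had 932, 803, 6622 and 5873 CPM at bent, against 24.7, 26.6, 5.68 and 6.86 CPM at torpedo. Its rise was smaller in Tsu-1 x Col-0, with an interaction of -4.88 ± 0.50 (adjusted p = 0.0189). The linoleate desaturase FAD3, which makes the linolenic acid of seed oil, had 879, 888, 7953 and 11364 CPM at bent, against 213, 156, 123 and 109 CPM at torpedo, with an interaction of -4.12 ± 0.53 (adjusted p = 0.0431). In both genes the stages did not overlap in either cross. The ubiquitin ligase gene RDUF1 had 484, 438, 15.6 and 17.5 CPM at bent, against 89.9, 97.8, 64.1 and 57.3 CPM at torpedo, so it was higher at bent in Tsu-1 x Col-0 and lower in Col-0 x Tsu-1 (4.17 ± 0.44, adjusted p = 0.0189). The calcium-binding gene AT4G27280 had the same form, with 757, 1241, 33.0 and 34.3 CPM at bent, against 90.4, 127, 97.97 and 74.4 CPM at torpedo (4.56 ± 0.54, adjusted p = 0.0323). The others were CRF6 (-4.47), AT5G56100 (3.58) and the plastid genome gene ATCG00570 (-3.81). CRU2 had 4603, 7457, 49446 and 16007 CPM at bent, against 54.3, 61.5, 9.87 and 7.55 CPM at torpedo and an interaction of -5.17 that missed the threshold (adjusted p = 0.0579). The count of 7 depended on single libraries. No gene passed without bent Tsu-1 x Col-0 replicate 2 or without either torpedo Tsu-1 x Col-0 library, and 1 passed without bent Tsu-1 x Col-0 replicate 1. Without bent Col-0 x Tsu-1 replicate 2, torpedo Col-0 x Tsu-1 replicate 1 or torpedo Col-0 x Tsu-1 replicate 2, the counts were 16, 18 and 55. As a description, the median change of the storage list was 6.71 in Tsu-1 x Col-0 and 10.68 in Col-0 x Tsu-1, that of the oil body list 5.96 and 7.91, that of the LEA list 7.20 and 6.89, and that of H3.1 histones -1.50 and -4.48.

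**Figure D3:**
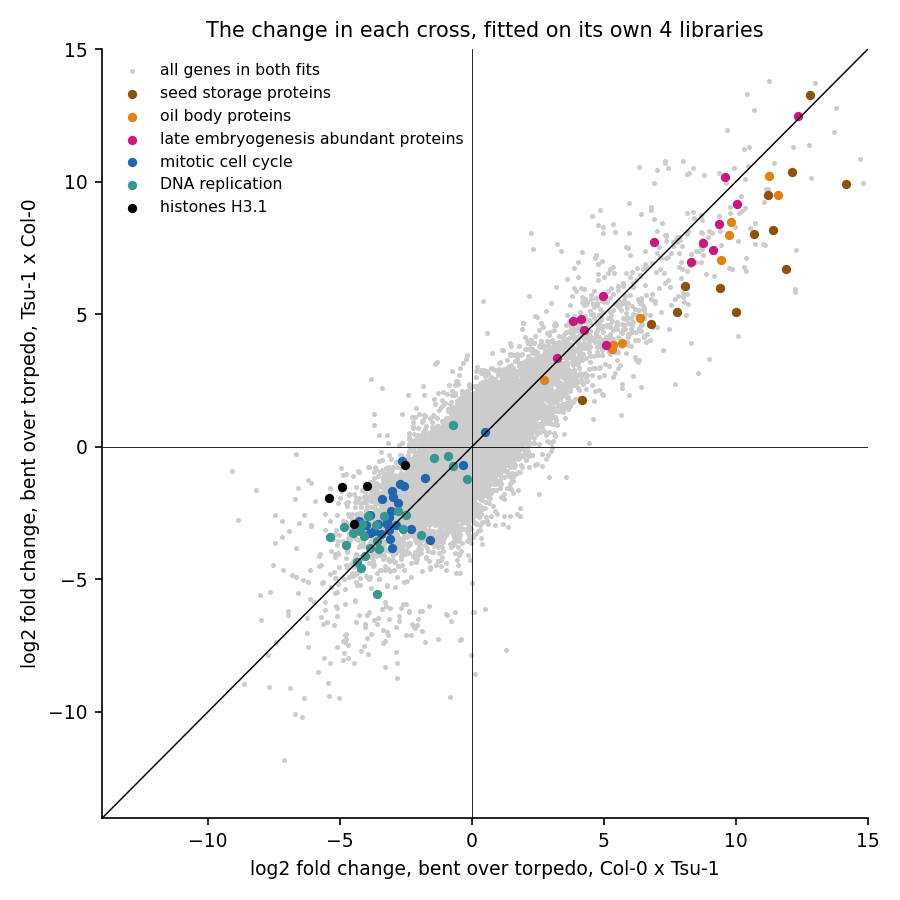
Log2 fold change, bent over torpedo, fitted in the 4 Tsu-1 x Col-0 libraries (y axis) and in the 4 Col-0 x Tsu-1 libraries (x axis) for the 18096 genes in both fits, with 6 lists coloured and the line of equal change in black. Most storage protein points lie below the line and the H3.1 points above it, while LEA points lie on both sides.

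The upstream sequences of genes that move together were searched for short motifs known from seed and cell cycle genes, in the 250 bases before the annotated start and on both strands, as a description. The motifs were CATGCA (RY core, the site of B3 factors such as FUS3), ACGTG (core of abscisic acid response elements), CACGTG (G-box, which contains ACGTG), TTTCCCGC and TTTGGCGC (E2F sites), CNAACGG (core of the mitosis-specific activator), CGCGGATC (histone octamer), AAACCCTA (telo box) and TGGGCC (site II). RY cores stood in 10 of 10 oil body regions and 11 of 13 storage protein regions, against 7.65% of the 19356 regions of all genes tested. ACGTG stood in 16 of 16 LEA regions, 8 of 10 oil body regions and 9 of 13 storage regions, but also in 4 of 5 H3.1 regions, against 22.9% of all, and 4 of the 16 LEA regions held an RY core. CNAACGG stood in 10 of 28 mitotic regions and 3 of 5 H3.1 regions, against 5.19% of all. The histone octamer stood in 3 of 5 H3.1 and 6 of 29 other histone regions, against 0.145% of all. TTTCCCGC stood in 8 and TGGGCC in 15 of 26 DNA replication regions, against 0.666% and 16.9% of all.

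Over whole call sets the shares were closer together. RY cores stood in 10.2% of the regions of genes higher at bent and in 6.89% of those lower, ACGTG in 28.6% and 22.2%, and CACGTG in 10.4% and 6.91%. The order was turned round for CNAACGG (4.64% and 7.14%), TGGGCC (12.5% and 20.4%), AAACCCTA (2.71% and 4.32%), TTTCCCGC (0.377% and 1.32%), TTTGGCGC (0.235% and 0.647%) and CGCGGATC (0.0942% and 0.3%). Regions are shown for 7 genes, chosen after the search for the motifs they hold and the changes above, from the RefSeq assembly TAIR10.1 and written 5′ to 3′ towards the gene, with matches to the searched motifs in capitals. They lie at chr4:14087306-14087555 on the plus strand (CRU3), chr4:12900180-12900429 on the plus strand (OLEO1), chr4:11227937-11228186 on the plus strand (the LEA gene AT4G21020), chr5:3270958-3271207 on the minus strand (the H3.1 gene AT5G10400), chr3:7229140-7229389 on the plus strand (HTA13), chr5:1861704-1861953 on the minus strand (CYCB1;2) and chr1:16969964-16970213 on the plus strand (MCM2). Other genes near these windows were not examined. CRU3 holds 1 RY core and 3 ACGTG cores, OLEO1 3 RY cores and 2 G-boxes, and AT4G21020 2 G-boxes, and all 3 genes rose. AT5G10400 and HTA13 hold the octamer and CNAACGG, and AT5G10400 also holds an ACGTG core. CYCB1;2 holds 4 copies of CNAACGG, and MCM2 an E2F site and 2 copies of TGGGCC. All 4 of these genes fell. AT5G10400 fell by 2.78 ± 0.50 log2 units, with 33.9, 32.1, 9.65 and 17.7 CPM at bent, against 85.3, 101, 199 and 238 CPM at torpedo.
CRU3: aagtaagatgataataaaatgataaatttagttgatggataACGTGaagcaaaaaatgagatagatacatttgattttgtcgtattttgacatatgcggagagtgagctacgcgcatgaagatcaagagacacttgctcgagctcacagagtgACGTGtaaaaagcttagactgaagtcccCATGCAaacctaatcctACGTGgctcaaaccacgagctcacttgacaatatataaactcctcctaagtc
OLEO1: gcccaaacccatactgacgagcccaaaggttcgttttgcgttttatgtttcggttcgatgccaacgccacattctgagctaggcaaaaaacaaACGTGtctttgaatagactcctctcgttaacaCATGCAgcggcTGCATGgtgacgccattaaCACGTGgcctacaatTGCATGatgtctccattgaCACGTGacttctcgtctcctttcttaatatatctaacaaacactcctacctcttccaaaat
AT4G21020: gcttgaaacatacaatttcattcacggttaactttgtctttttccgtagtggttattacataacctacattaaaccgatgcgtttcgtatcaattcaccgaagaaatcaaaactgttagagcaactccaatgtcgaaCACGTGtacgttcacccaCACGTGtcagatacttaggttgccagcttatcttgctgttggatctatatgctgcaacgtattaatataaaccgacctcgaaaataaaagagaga
AT5G10400: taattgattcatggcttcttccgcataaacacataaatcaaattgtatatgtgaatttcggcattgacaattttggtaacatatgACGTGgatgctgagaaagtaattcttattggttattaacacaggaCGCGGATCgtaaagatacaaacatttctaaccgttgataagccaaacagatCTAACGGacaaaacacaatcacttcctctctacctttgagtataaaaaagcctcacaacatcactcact
HTA13: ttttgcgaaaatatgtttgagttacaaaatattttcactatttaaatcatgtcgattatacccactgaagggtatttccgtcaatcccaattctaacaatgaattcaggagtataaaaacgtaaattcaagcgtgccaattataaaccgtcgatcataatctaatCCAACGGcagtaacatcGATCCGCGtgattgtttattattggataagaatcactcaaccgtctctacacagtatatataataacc
CYCB1;2: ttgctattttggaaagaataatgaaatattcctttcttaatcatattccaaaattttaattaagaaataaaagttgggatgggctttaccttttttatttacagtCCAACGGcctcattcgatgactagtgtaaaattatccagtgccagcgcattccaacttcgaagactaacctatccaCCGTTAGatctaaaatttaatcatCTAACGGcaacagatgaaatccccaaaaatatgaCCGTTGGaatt
MCM2: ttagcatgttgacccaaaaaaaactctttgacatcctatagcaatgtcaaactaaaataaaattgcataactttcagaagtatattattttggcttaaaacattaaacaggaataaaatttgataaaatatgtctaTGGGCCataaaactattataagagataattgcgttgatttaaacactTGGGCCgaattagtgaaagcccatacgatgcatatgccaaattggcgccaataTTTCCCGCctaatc

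**Figure D4:**
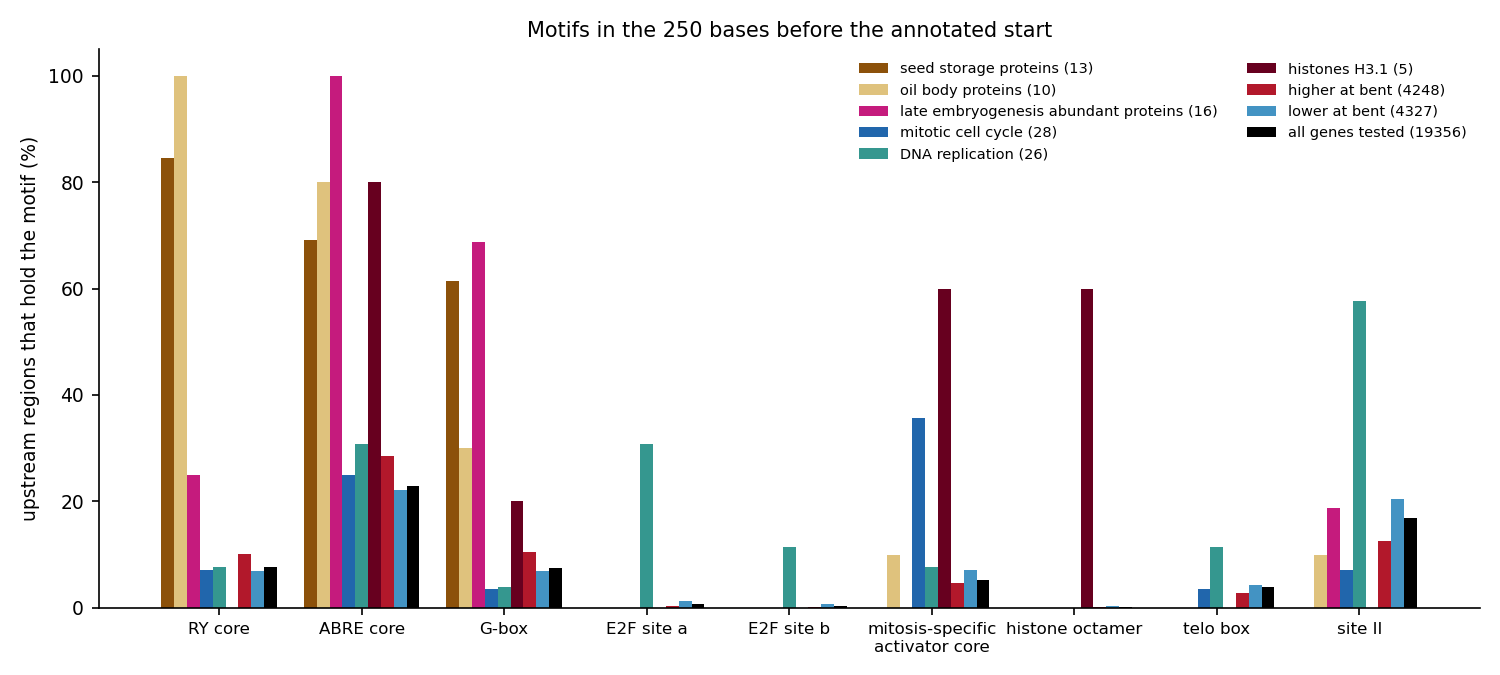
Percent of upstream regions (250 bases) that hold each motif on either strand, for 6 gene lists, for genes higher and lower at bent and for all genes tested, with the number of regions in brackets; E2F site a is TTTCCCGC and E2F site b TTTGGCGC. RY cores reach 84.6% to 100% in the storage and oil body lists and 7.65% over all genes tested.

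Set within the 7 embryo stages, the bent libraries lay between torpedo and mature embryos for storage protein, LEA, DNA replication and chlorophyll synthesis genes, on the scale of the mean log2 CPM of a list with all 29 libraries scaled together. Storage protein genes averaged 4.299 ± 0.325 at torpedo, 12.8 ± 1.43 at bent and 14.2 ± 0.980 in mature embryos (SD, n = 4 each). LEA genes averaged -1.33 ± 0.188 at torpedo, 2.98 ± 0.400 at bent and 9.95 ± 0.884 in mature embryos, so that the mean of the list climbed more after bent than before it. That mean takes in members that did not pass the filter on low counts, and very low read numbers at torpedo can narrow the earlier step. DNA replication genes averaged 5.05 ± 0.229 at heart, 4.81 ± 0.239 at torpedo and 1.56 ± 0.337 at bent. Cellulose synthesis genes had their highest mean of the 7 stages at bent, 4.18 ± 0.372, against 3.49 ± 0.165 at torpedo, and chlorophyll synthesis genes had theirs at torpedo. Photosystem genes averaged 8.13 ± 0.907 at torpedo, 8.20 ± 0.402 at bent and 1.36 ± 2.47 in mature embryos. The neighbouring stages were not tested against each other here.

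**Figure D5:**
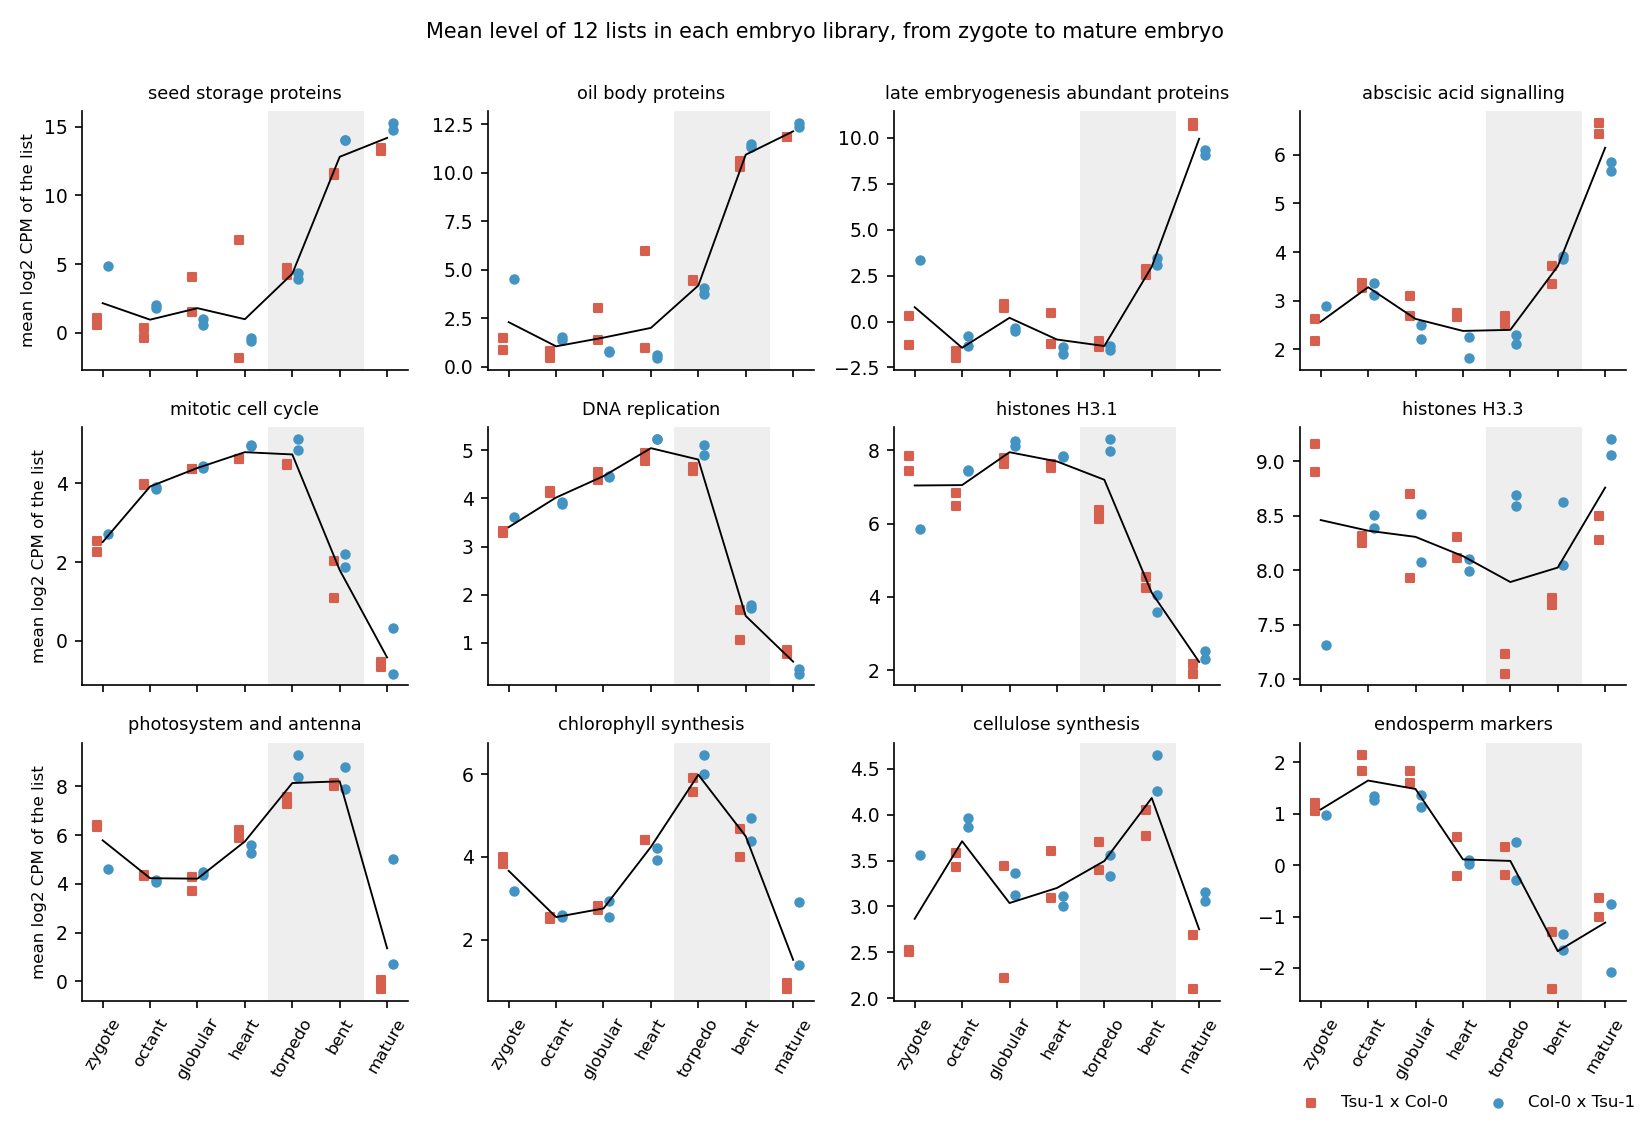
Mean log2 CPM of 12 lists in each embryo library across the 7 stages, with Tsu-1 x Col-0 libraries as squares, Col-0 x Tsu-1 libraries as circles, a line through the stage means and torpedo and bent shaded. Storage, oil body and LEA lists climb and division lists drop between torpedo and bent. The stage mean of photosystem genes stays level between them, with median changes of 0.89 in Tsu-1 x Col-0 and -0.46 in Col-0 x Tsu-1.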

How the data were processed

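Total reads per gene were deposited by the authors as estimated counts per gene for 29 libraries, of which the 8 bent and torpedo libraries enter the tests. The submitters' processing notes name STAR 2.7.0d, featureCounts 1.6.0, edgeR and TAIR10, without roles, and how fractional reads arose is not given in the sources used here. Between 8.68% and 18.9% of the values in these 8 libraries were not whole, so expected counts were rounded. The authors' deposited parental table gives a maternal fraction, its adjusted p-value and the variant read count, pooled over the libraries of a stage and cross. The kit's strand setting is not given, so reads of overlapping genes cannot be told apart.

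Genes were kept with filterByExpr, scaled by TMM and tested in edgeR 4.0.16 (R 4.3.3) by the quasi-likelihood test with cross and stage as terms, and with their interaction in a further fit. P-values were adjusted by Benjamini-Hochberg over all genes tested, at a threshold of 0.05. In simulated data with 200 changed genes the fit recovered 5% of 2-fold and 86% of 4-fold changes, with 6 false calls among 19056 genes. Far fewer genes changed there than the 44.1% called in the data, which makes the adjusted threshold stricter. These values therefore do not give the recovery or the false calls in the data. DESeq2 1.42.0 was an alternative. Replicates are called biological in the labels, but nothing says how their plants were separated, so p-values measure the spread between these libraries.

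Names came from RefSeq TAIR10.1 (33056 of 33341 IDs matched, 10804 with a symbol). Genes named are the 12 largest changes in each direction whose mean log2 CPM reached 5 and whose stages did not overlap, up to 4 called members of each list with the highest level and those called against the list's direction, 8 transcription factors in each direction, and for the interaction the 5 smallest p-values in each direction. Further list members and family members were chosen after their values were seen. The members, the 41 lists and the tests were chosen with earlier results of these data known. CPM values are scaled by the TMM factors.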

Additional observations from a re-analysis of the deposited data

Results flagged for a closer look

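The change from torpedo to bent differed between the crosses for 7 genes by the interaction test of edgeR, given here as Tsu-1 x Col-0 minus Col-0 x Tsu-1 on the log2 scale. The values were -4.88 for PAP85 (AT3G22640), -4.47 for CRF6 (AT3G61630), -4.12 for FAD3 (AT2G29980), -3.81 for ATCG00570, 3.58 for AT5G56100, 4.17 for RDUF1 (AT3G46620) and 4.56 for AT4G27280. At bent the 2 Tsu-1 x Col-0 libraries were both above, or both below, the 2 Col-0 x Tsu-1 libraries for each of these 7 genes. The genes were called on these same values, so that separation is no further support. Every one of the 7 calls was lost in at least 4 of the 8 fits that left out 1 library each.

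A further 3 values out of 130 checked had 1 library far from the other 3 of its stage. The mean log2 CPM of DNA replication genes at bent had a gap that was 0.862 of the range, that of sucrose transport and cleavage genes at bent 0.889, and that of HMGB6 (AT5G23420) at torpedo 0.857, each above the critical value of Dixon's test for 4 libraries. Chance gives about 1 such value in 20, which is more than were found.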

How the results depend on the processing

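No called change of a named gene turned its sign under the alternatives it could be tested in, 435 of the 440 genes in Tsu-1 x Col-0 alone. Genes named for the interaction but not called for stage did turn, such as RDUF1 (0.23 in both crosses together, -1.83 in Col-0 x Tsu-1 alone). Of 440 named genes, 368 kept their call in each fit that left out 1 library, and 291 under all alternatives. The counts of 4253 higher and 4357 lower genes stayed within 1.5 times under DESeq2 (4306 and 4970), RLE scaling, which shifted the median of all genes by -0.06, no filter on low counts and a fit of all 29 libraries. Counts moved further in 3 settings: 5311 genes changed in Col-0 x Tsu-1 alone, 2422 of them lower; without the cross covariate 5715 changed, 2726 of them lower; and at an adjusted p under 0.01 there were 2765 lower genes. Leaving out 1 library gave 7266 to 8487 changed genes, 3373 to 4328 higher and 3653 to 4242 lower. The interaction count of 7 became 304 with DESeq2, 172 with all 29 libraries and 553 with no filter, and ranged from 0 to 55 when 1 library was left out. The cause of these moves was not tested.

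Deviations of same-numbered bent and torpedo libraries correlated at 0.0709 in Tsu-1 x Col-0 and 0.620 in Col-0 x Tsu-1. Same-numbered libraries thus went together in Col-0 x Tsu-1 and not in Tsu-1 x Col-0. The main fit used no pairing, and whether same-numbered Col-0 x Tsu-1 libraries share a source was not tested. The replicate block gave 9263 changed genes, 4535 higher and 4728 lower, and it was not run for the interaction. The shallowest library, bent Tsu-1 x Col-0 replicate 2, limits genes of low level. Most 2-fold changes were not recovered in simulated data with 200 changed genes. Far more genes changed in the real data, so the recovery there was not measured.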
